A study of Saccharomyces cerevisiae with 43 samples.

Results

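The deposited tables hold 30 rows of the mitochondrial genome of budding yeast, and their transcript ratios are described here across salt, hydrogen peroxide and recovery. Members were chosen by locus tag: 27 rows carry an identifier that starts with Q0, and the rows 15S_rRNA, 21S_rRNA and RPM1 have such a tag in the RefSeq annotation. The first array design held 18 members among 5604 features, the second held 29 among 6868, and 17 stood on both. The 18 comprised 7 protein genes, 9 open reading frames (ORFs) inside introns and the ORFs Q0143 and Q0144, and the 29 comprised 8 protein genes, 9 intron ORFs, 9 other ORFs and 3 RNA genes. The RefSeq table named 22 of the 30, and the other 8 are given by identifier, without a role.

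The series set 2 dye-labelled RNA samples against each other on each of 43 spotted arrays. Values are log2 ratios of the stressed or mutant sample over the other channel, and base 2 was inferred. On the first design (32 arrays, 14 groups) all cells were BY4741, a haploid laboratory strain, grown in YPD medium for 3 doublings. Pretreated cells received 0.7 M NaCl for 60 min, recovered for 240 min and were then sampled after 10, 20, 30 and 40 min of 0.4 mM H2O2 (3, 3, 2 and 2 arrays), with recovered cells before H2O2 in the other channel. Naive cells, which had no NaCl, were followed over the same 4 times with equal numbers of arrays, against untreated cells at 0 min. NaCl alone was followed for 15, 30, 45 and 60 min (1, 2, 2 and 1 arrays) against untreated cells. Recovered cells were set against untreated cells 240 min after NaCl (3 arrays) and 240 min after a mock change of medium (3 arrays). The second design held 1 array for each of 11 conditions of BY4741 and of nup42 cells, which lack the nuclear pore protein Nup42, grown for at least 7 doublings. Whether replicate arrays came from separate cultures is not stated, and a p-value here reflects the spread between samples, which may be technical.

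Yeast mitochondria transcribe their DNA with a single-subunit RNA polymerase, Rpo41, from a small number of start sites into long RNAs that are then cut and spliced. The products are subunits of cytochrome c oxidase (COX1, COX2, COX3), cytochrome b of the next complex upstream (COB), subunits of the ATP synthase membrane part (ATP6, ATP8, OLI1), a protein of the mitochondrial ribosome (VAR1), ribosomal and transfer RNAs, and the RNA of RNase P (RPM1). Several introns of COX1, COB and the 21S ribosomal RNA hold ORFs of their own, which code for maturases that help splicing, reverse transcriptases and homing endonucleases. Yeast mitochondrial messengers carry no poly(A) tail, and the primer used here for cDNA synthesis is not given in the sources used here. In the RefSeq table, AI1, AI2, AI3, AI4 and AI5_ALPHA begin at the same base as COX1, and BI2, BI3 and BI4 at the same base as COB, because each ORF continues the upstream exons. Where the probes lie within them is not given in the sources used here, so a row named for an intron ORF may also read exon sequence.

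Values were missing more often for mitochondrial rows than for other features. On the first design 123 of 576 member values were missing (21.4%), against 5.76% over all features. OLI1, the ring subunit of ATP synthase, was the one member with a value on all 32 arrays, as 43.0% of all features were. AI5_ALPHA had 31 values, AI1 and ATP8 had 30 each, VAR1 had 20, and COB had the fewest with 19. Gaps were spread over the classes, with 17.7% of values missing for intron ORFs, 23.7% for protein genes and 29.7% for Q0143 and Q0144. They were not spread evenly over arrays. On the 4 arrays whose label names begin with YG8, which are replicate 3 at 10 and at 20 min of H2O2 in pretreated and in naive cells, 66.7% of member values were missing, against 15.4% over all features. On the other 28 arrays the shares were 14.9% and 4.39%. Pretreated cells had 3 and 5 members with a value on their YG8 arrays at 10 and 20 min, and naive cells had 7 and 9. Outside these, replicate 2 at 45 min of NaCl had 7 of 18. On the second design every protein gene and intron ORF had a value on all 11 arrays, and the 51 missing values were those of other ORFs (48.5% missing) and of RPM1. Q0143 had no value there.

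**Figure D1:**
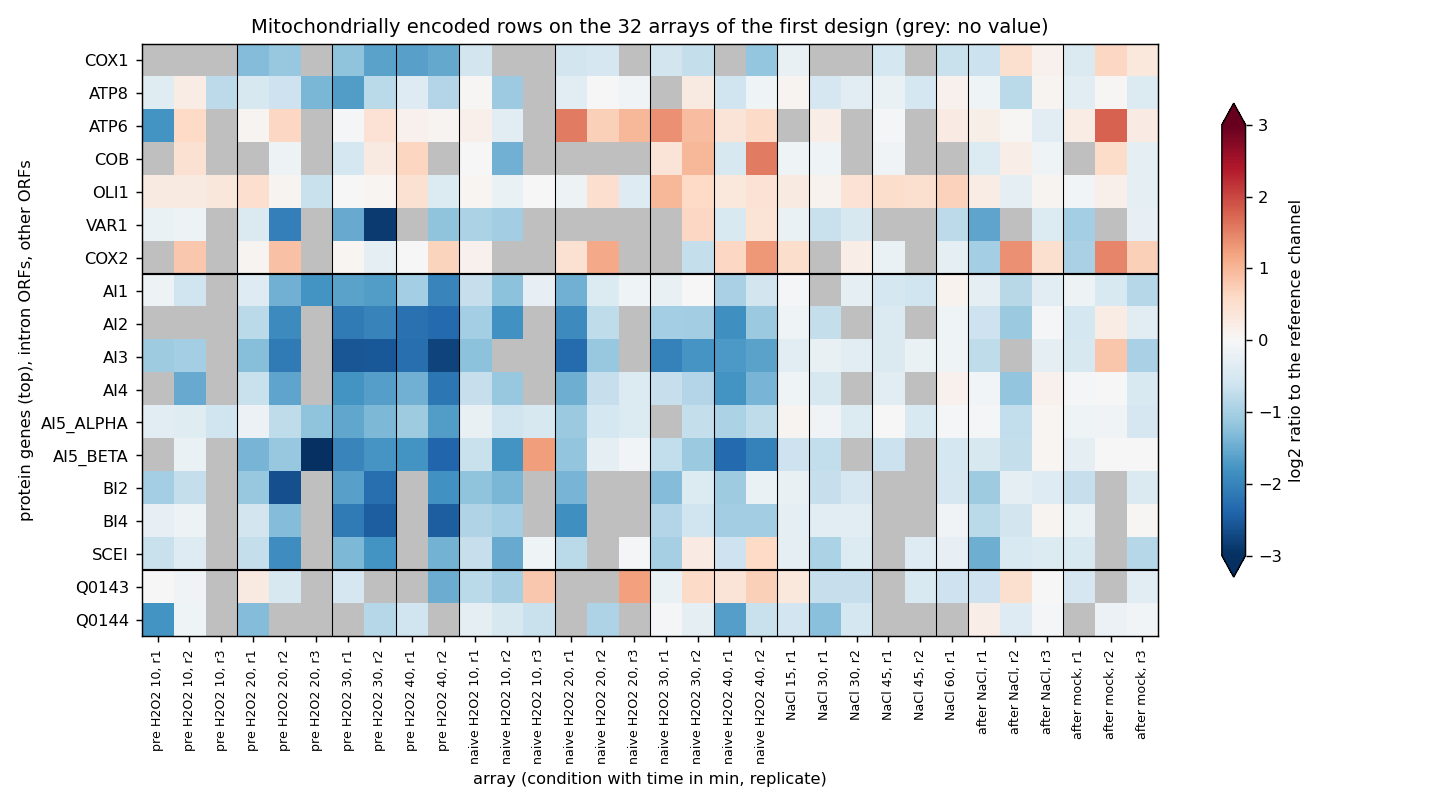
Log2 ratio (colour) of 18 mitochondrially encoded rows (vertical axis: protein genes, then intron ORFs, then Q0143 and Q0144) on 32 arrays (horizontal axis, by condition with time in min and replicate), with missing values in grey. The intron ORFs are lowest after 20 to 40 min of H2O2 in pretreated cells, OLI1 has no grey cell, and 9 to 15 of the 18 rows are grey on the replicate 3 arrays at 10 and 20 min of H2O2, as are 11 on replicate 2 at 45 min of NaCl.

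Intron ORFs had lower ratios than protein genes of the same genome. On 31 of the 32 arrays the median of the intron ORFs lay below that of the protein genes. Some medians rest on few rows. At 10 min of H2O2, naive replicate 3 had values for 1 protein gene and 4 intron ORFs. Pretreated replicate 3 had values for 2 protein genes and 1 intron ORF. The exception was mock replicate 1 after recovery, with −0.27 for intron ORFs and −0.38 for protein genes. In pretreated cells the intron minus protein difference averaged −0.48 ± 0.33 at 10 min and −0.92 ± 0.46 at 20 min (SD, n = 3 each), then −1.40 ± 0.16 at 30 min and −1.60 ± 0.11 at 40 min (SD, n = 2 each). In naive cells it averaged −0.40 ± 0.30 and −0.81 ± 0.67 at 10 and 20 min (n = 3 each), then −1.47 ± 0.22 and −1.24 ± 0.35 at 30 and 40 min (n = 2 each). The differences at 30 and 40 min thus lay near each other in both kinds of cells, while the class medians themselves did not. At 30 min the intron ORF median was −1.80 on both pretreated arrays, against −0.94 and −0.71 on the naive arrays. The protein gene median at that time was −0.52 and −0.29 on the pretreated arrays, against 0.69 and 0.60 on the naive arrays. Both classes were lower on the pretreated arrays, without overlap. With all arrays scaled to equal spread the pretreated difference at 30 min was −0.80 and the naive difference −1.0. That scaling multiplies each array by a positive factor, so it changes the size of a difference and cannot change which class is lower. A median over other rows at each array enters these values, because rows with gaps differ between arrays.

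**Figure D2:**
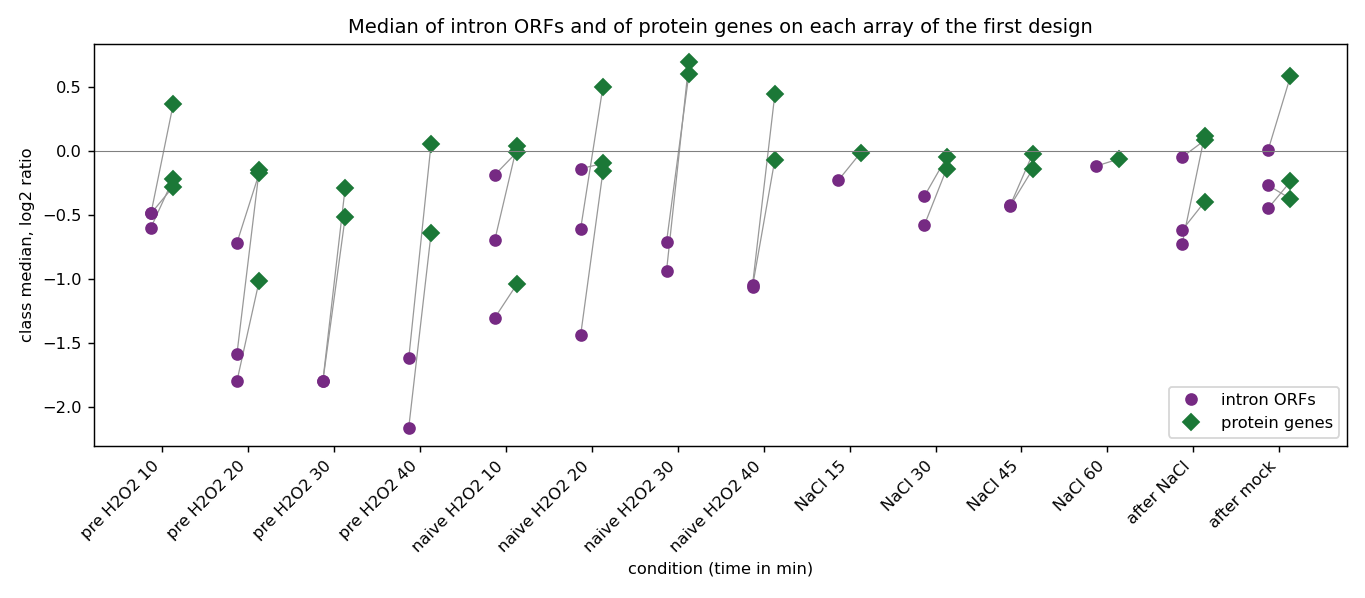
Median log2 ratio (vertical axis) of the intron ORFs (circles) and of the protein genes (diamonds) on each array of the first design, by condition (horizontal axis, times in min), with a grey line joining the classes of 1 array. The line slopes up towards the protein genes on 31 of 32 arrays and averaged longest after 30 and 40 min of H2O2.

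On the first design, the intron ORFs of COX1 and COB fell in H2O2 in pretreated and in naive cells. In pretreated cells all 9 intron ORFs had fallen by 20 and 30 min. In pretreated cells 3 of 12 members tested fell at 10 min, 12 of 16 at 20 min, 12 of 16 at 30 min and 7 of 11 at 40 min, and none rose. Over all features tested, 23.7%, 33.9%, 32.6% and 33.4% fell at these times, and 16.6%, 26.7%, 29.7% and 29.7% rose. In naive cells 5 of 15 members fell at 10 min, 5 of 12 at 20 min, 5 of 14 at 30 min and 8 of 17 at 40 min, against 18.5%, 29.2%, 29.3% and 33.4% of all features. One naive member rose at 20 min and 2 at 30 min, where 25.4% and 25.7% of all features rose, and none did at 10 or 40 min, where 15.2% and 27.9% did. The median over tested members in pretreated cells was −0.40, −1.17, −1.61 and −1.51 in order of time, beside −0.10, −0.10, −0.04 and −0.04 over all features. In naive cells it was −0.72, −0.53, −0.51 and −0.63, beside −0.04, −0.07, −0.06 and −0.08. On the second design the BY4741 naive medians were instead above 0, with 0.41 at 10 min and 0.46 at 20 min. In RNA from whole cultures, fewer cells holding a transcript and less transcript per cell cannot be told apart. These calls (limma, adjusted p under 0.05 over all features) depended on the arrays' spread. With every array scaled to the same median absolute log2 ratio, pretreated counts were 1, 3, 3 and 2 and naive counts 5, 0, 0 and 0. They also depended on single arrays: without replicate 1 or without replicate 2 the pretreated counts were 0 of 3 tested at 10 min and 4 of 5 tested at 20 min, and the naive count at 10 min was 0 of 7. Without replicate 3, an array with few member values, the naive count at 10 min was 8 of 15. The naive count at 20 min was 0 of 7 without replicate 1 and 3 of 8 without replicate 2, and at 30 min it was 1 of 18 without replicate 1 and 4 of 14 without replicate 2. The pretreated count at 40 min was 11 of 16 without replicate 1. Fewer members could be tested in several of these fits, so the counts are to be read against those tested.

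Among the COX1 intron ORFs, AI3, which codes for a homing endonuclease, had the lowest mean ratio at 30 min in both cell states. In pretreated cells AI3 read −1.07 and −1.03 at 10 min, −1.27 and −2.11 at 20 min, −2.57 and −2.54 at 30 min and −2.27 and −2.78 at 40 min. In naive cells it read −1.23 on the single array with a value at 10 min, −2.32 and −1.14 at 20 min, −2.02 and −1.76 at 30 min and −1.73 and −1.60 at 40 min. All H2O2 arrays with a value were below −1, and the pretreated arrays lay below the naive ones at 30 and 40 min while the values overlapped at 20 min. The mean at 30 min was −2.56 ± 0.33 in pretreated cells (SE, n = 2, limma adjusted p = 5.4e-06) and −1.89 ± 0.33 in naive cells (n = 2, limma adjusted p = 0.00016). AI2, whose product is a reverse transcriptase and maturase, fell at 30 min in both, with a mean of −2.06 ± 0.32 in pretreated cells and −1.03 ± 0.32 in naive cells. Its values were −2.11 and −2.01 on the pretreated arrays, against −1.01 and −1.05 on the naive ones. The other reverse transcriptase ORF, AI1, is described with the difference between the cell states below.

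AI4 and AI5_ALPHA, further endonuclease ORFs of COX1, moved less than AI3 and AI2 at 30 min. This did not hold at every time, as AI4 averaged −1.59 in naive cells at 40 min, against −1.475 for AI2. AI4 read −1.80 and −1.66 on the pretreated arrays at 30 min, against −0.68 and −0.87 on the naive arrays. AI5_ALPHA, the intron ORF with the fewest gaps, read −0.32, −0.36 and −0.60 at 10 min, −0.18, −0.77 and −1.20 at 20 min, −1.56 and −1.35 at 30 min and −1.07 and −1.67 at 40 min in pretreated cells. In naive cells AI5_ALPHA read −0.22, −0.60 and −0.49 at 10 min, −1.12, −0.52 and −0.41 at 20 min, −0.71 on 1 array at 30 min and −0.95 and −0.77 at 40 min. The states overlapped at 10 and 20 min and not at 30 and 40 min. Among the intron ORFs, AI5_BETA spread most between replicates at 10 min in naive cells and at 20 min in pretreated cells. At 20 min it read −1.40, −1.13 and −3.29 in pretreated cells, against −1.18, −0.30 and −0.08 in naive cells, and naive replicate 3 at 10 min read 1.26, the highest value of any intron ORF on the first design. The −3.29 and the 1.26 both came from YG8 arrays. At 40 min AI5_BETA read −2.38 and −1.79 in pretreated cells, against −2.33 and −2.02 in naive cells, so the states overlapped. Its naive mean there, −2.175, was the lowest of the intron ORFs.

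The COB intron ORFs BI2 and BI4, of which BI4 codes for a maturase that acts on an intron of COB and on an intron of COX1, fell at 20 and 30 min in pretreated cells. BI4 read −0.24 and −0.15 at 10 min, −0.55 and −1.31 at 20 min, −2.13 and −2.48 at 30 min and −2.47 on the single array with a value at 40 min in pretreated cells. In naive cells BI4 read −0.91 and −1.01 at 10 min, −1.85 on 1 array at 20 min, −0.87 and −0.60 at 30 min and −1.04 and −1.05 at 40 min. The pretreated values were above the naive ones at 10 min and below them at 30 and 40 min. BI2 fell at 30 min in both, with a mean of −1.95 ± 0.32 in pretreated cells and −0.86 ± 0.32 in naive cells (SE, n = 2 each, limma adjusted p = 0.00011 and 0.035). SCEI, the endonuclease ORF in the intron of the 21S ribosomal RNA, read −1.35 and −1.80 on the pretreated arrays at 30 min, against −1.0 and 0.25 on the naive arrays. SCEI passed the test at 20 and 30 min in pretreated cells and at no time in naive cells.

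**Figure D3:**
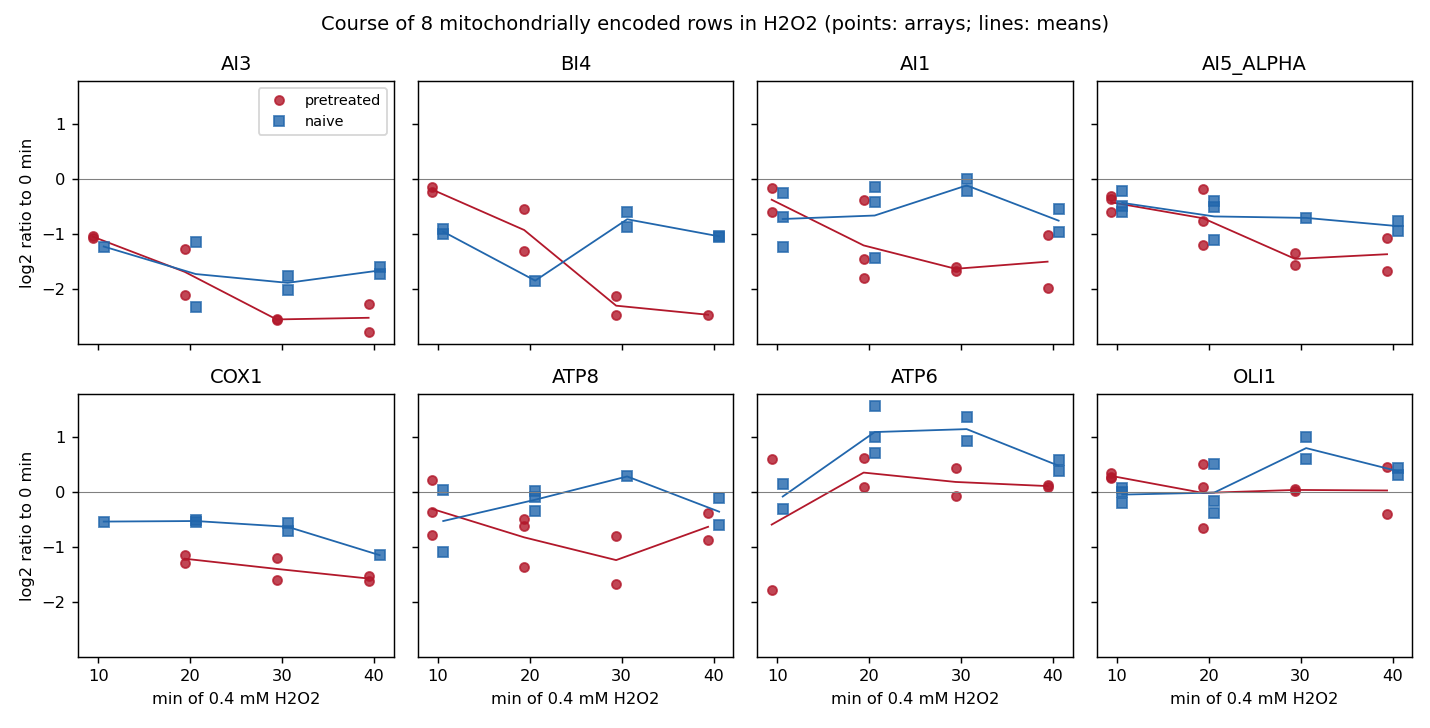
Log2 ratio to 0 min (vertical axis) of AI3, BI4, AI1, AI5_ALPHA, COX1, ATP8, ATP6 and OLI1 after 10 to 40 min of H2O2 (horizontal axis) in pretreated cells (circles) and naive cells (squares), with 1 point for each array that had a value and lines through the means. The 4 intron ORFs in the upper row lie below 0 on every array shown, and the pretreated points lie below the naive ones at 30 min in every panel with values for both. COX2, not shown, lay the other way at 30 min, with 0.05 and −0.29 in pretreated cells against −0.71 on 1 naive array.

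The protein genes did not move together. COX1, the core subunit of cytochrome c oxidase, was low in H2O2, as its intron ORFs were. In pretreated cells it read −1.29 and −1.14 at 20 min, −1.20 and −1.60 at 30 min and −1.62 and −1.53 at 40 min. In naive cells COX1 read −0.54 on 1 array at 10 min, −0.55 and −0.51 at 20 min, −0.56 and −0.71 at 30 min and −1.15 on 1 array at 40 min. The pretreated values lay below the naive ones at each shared time, and no pretreated array had a COX1 value at 10 min. COX1 fell in pretreated cells at 20, 30 and 40 min, with a mean of −1.40 ± 0.26 at 30 min (SE, n = 2, limma adjusted p = 0.00035). In naive cells COX1 could be tested only at 20 and 30 min and passed at neither. Its naive means there were −0.53 ± 0.26 and −0.635 ± 0.26 (SE, n = 2 each, limma adjusted p = 0.098 and 0.051), the latter close to the threshold. VAR1, the ribosomal protein gene, read −1.51 and −2.88 on the pretreated arrays at 30 min and 0.62 on the single naive array with a value. ATP8, an ATP synthase subunit whose gene is known to share a precursor RNA with COX1 and ATP6, read −1.68 and −0.80 on the pretreated arrays at 30 min and 0.28 on the single naive array with a value. Both fell at 20 and 30 min in pretreated cells, and the means at 30 min were −1.24 ± 0.29 for ATP8 and −2.20 ± 0.41 for VAR1 (SE, n = 2 each).

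ATP6 lies next to ATP8 in the annotation, and its row rose in naive cells. In pretreated cells ATP6 read −1.79 and 0.60 at 10 min, 0.09 and 0.61 at 20 min, −0.07 and 0.43 at 30 min and 0.13 and 0.08 at 40 min. In naive cells it read 0.15 and −0.32 at 10 min, 1.56, 0.71 and 0.99 at 20 min, 1.36 and 0.92 at 30 min and 0.38 and 0.57 at 40 min. All naive values from 20 to 40 min were above 0, and at 20 and 30 min they lay above every pretreated value of the same time. ATP6 rose in naive cells by 1.09 ± 0.34 at 20 min (SE, n = 3, limma adjusted p = 0.012) and by 1.14 ± 0.41 at 30 min (n = 2, limma adjusted p = 0.027). OLI1 read 0.01 and 0.06 on the pretreated arrays at 30 min, against 0.99 and 0.60 on the naive arrays, where it rose by 0.80 ± 0.23 (SE, n = 2, limma adjusted p = 0.0051). At the other times OLI1 lay between −0.66 and 0.51 in pretreated cells and between −0.38 and 0.50 in naive cells.

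COX2 and COB passed no test in H2O2, and gaps left several times untested. COB could not be tested at 20 min in naive cells or at 10, 20 and 40 min in pretreated cells. COX2 could not be tested at 10 min in either state or at 30 min in naive cells. COB, cytochrome b, read −0.52 and 0.28 at 30 min and 0.65 on 1 array at 40 min in pretreated cells, against 0.39 and 1.00 at 30 min and −0.49 and 1.55 at 40 min in naive cells. COX2 read 0.05 and −0.29 at 30 min and −0.02 and 0.67 at 40 min in pretreated cells, against −0.71 on 1 array at 30 min and 0.62 and 1.31 at 40 min in naive cells. Replicates of COB lay on both sides of 0 at 30 min in pretreated cells and at 40 min in naive cells. COX2 was above 0 on every array with a value at 10 and 20 min (0.08 to 1.13). At 30 and 40 min it lay on both sides of 0 in pretreated cells. No direction over the whole course can be read for either gene. Of the other ORFs, Q0144 fell at 10 min in pretreated cells (−0.97 ± 0.33) and at 40 min in naive cells (−1.16 ± 0.33) (SE, n = 2 each), and Q0143 passed no test.

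The difference between the cell states was tested directly at each time. At 30 min 2 of 12 members tested were lower in pretreated than in naive cells, against 6.16% of all features tested, and none were higher, against 2.77%. AI1 read −1.60 and −1.67 on the pretreated arrays, against −0.23 and −0.01 on the naive ones, a difference of −1.52 ± 0.45 (SE, n = 2 each, limma adjusted p = 0.039). BI4 differed by −1.57 ± 0.29 (n = 2 each, limma adjusted p = 0.0085). Both groups of arrays were apart for these rows, and all 12 members tested had a negative difference, with a median of −0.96 beside −0.02 over all features. Among the members not tested, COX2 had a positive difference of 0.59 with 1 naive array, and the others had negative ones. The remaining 10 members did not pass, and their differences ran from −1.20 ± 0.55 for SCEI to −0.67 ± 0.47 for AI3. OLI1, which had no gaps, differed by −0.76 ± 0.32 (limma adjusted p = 0.14). Neither call was made without naive replicate 1, without naive replicate 2, with equal array spread or with a fit to the 4 arrays alone, so the 2 calls rest on a variance pooled over other arrays.

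At the other times no member passed this test. At 10 min 0 of 11 members passed, against 0.229% of all features, and 1 of 11 had an unadjusted p under 0.05, beside 500 of 5241 features. At 20 min 0 of 12 passed, against 3.76%, with 1 at an unadjusted p under 0.05, beside 1228 of 5298 features. At 40 min 0 of 10 passed, against 11.9%, with none under that value, beside 1234 of 4769 features. The median difference over members tested was 0.27 at 10 min, −0.43 at 20 min and −0.44 at 40 min. At 10 min 9 of 11 members were higher in pretreated cells, BI4 with 0.77 ± 0.29 (limma adjusted p = 0.41) among them. A value that missed the threshold does not show that the states were alike, and each pretreated ratio is relative to recovered cells and each naive ratio to untreated cells.

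In NaCl itself on the first design most mitochondrial rows stood below 0, and few passed the test. The median over tested members was −0.49 at 30 min and −0.31 at 45 min, beside −0.01 and −0.02 over all features. At 30 min 1 of 10 members tested fell, against 27.6% of all features, and none rose, against 24.6%. This member was Q0144, with −1.25 and −0.52. At 45 min none of 5 passed, against 37.8% of all features, with 1 at an unadjusted p under 0.05, beside 2269 of 4932 features. The intron ORF medians were −0.23 at 15 min, −0.58 and −0.36 at 30 min, −0.43 and −0.43 at 45 min and −0.12 at 60 min. The protein gene medians at these times were −0.02, −0.14 and −0.05, −0.15 and −0.03, and −0.07. OLI1 was above 0 on all 6 arrays, with 0.28 at 15 min, 0.10 and 0.43 at 30 min, 0.52 and 0.47 at 45 min and 0.70 at 60 min, and did not pass the test at 30 or 45 min. The count at 30 min was 0 without replicate 1 or with equal array spread, 5 in a fit to the 2 arrays alone and 2 with the YG8 arrays as a block.

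After 240 min of recovery no member passed, either against untreated cells or between cells that had received NaCl and cells that had received the mock change. All 18 members were tested in each of these 3 comparisons, and no feature on the array passed in any of them (0%). At an unadjusted p under 0.05, 5 members were counted after NaCl (473 of 5583 features), 1 after mock (205 of 5438) and none in the difference (44 of 5425). The median over members was −0.33 after NaCl and −0.19 after mock, beside −0.01 and −0.00 over all features, and the difference had a median of −0.15. The differences ran from −0.78 ± 0.48 for ATP6 to 0.36 ± 0.46 for Q0143 (SE), each with a limma adjusted p of 1. These arrays had the smallest spread over all features, with SDs from 0.226 to 0.464. With every array scaled to the same median absolute log2 ratio, 5 members passed after NaCl and 6 after mock.

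For COX2 the replicate number went with larger gaps than the treatment did. It read −1.02, 1.38 and 0.49 in replicates 1, 2 and 3 after NaCl, against −0.97, 1.46 and 0.71 after mock. COX1 read −0.65, 0.49 and 0.12 after NaCl, against −0.43, 0.62 and 0.31 after mock. In both genes replicate 1 was the lowest and replicate 2 the highest under either treatment. The intron ORF AI4 did not share this order, with −0.09, −1.19 and 0.13 after NaCl, against −0.07, 0.00 and −0.45 after mock. ATP6 read 0.18, 0.04 and −0.33 after NaCl, against 0.23, 1.76 and 0.24 after mock, so every mock value lay above every NaCl value and replicate 2 after mock stood apart from the other 5 arrays.

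**Figure D4:**
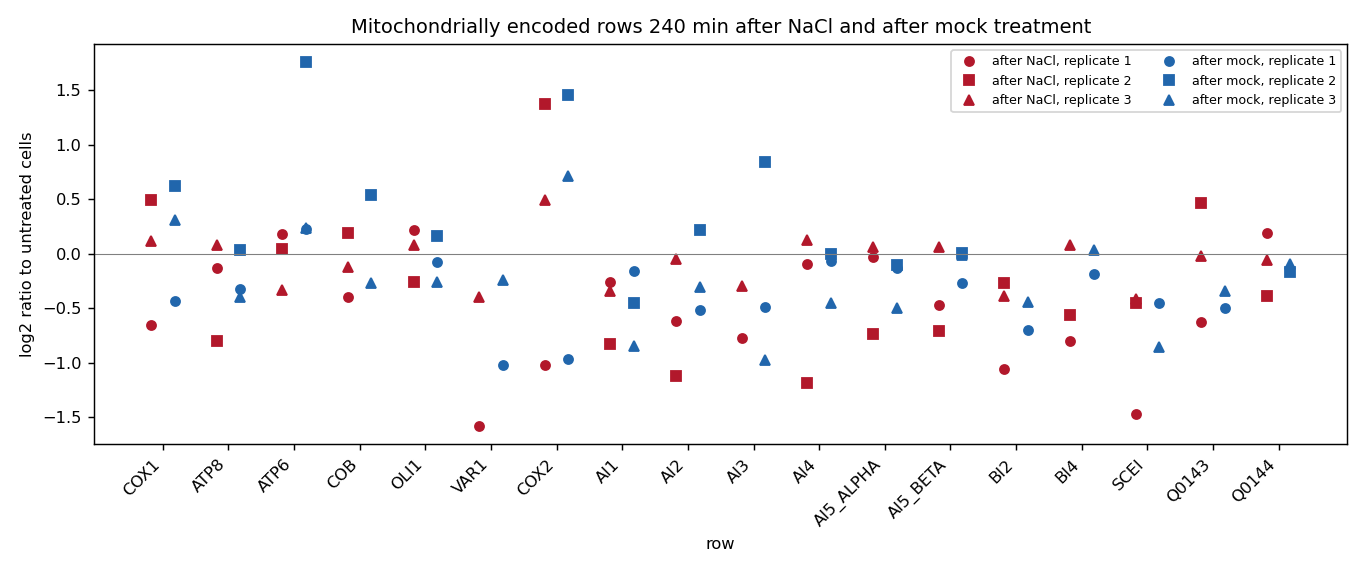
Log2 ratio to untreated cells (vertical axis) of each of the 18 rows (horizontal axis) 240 min after NaCl (red, left) and after mock treatment (blue, right), with circles, squares and triangles for replicates 1, 2 and 3. For COX1 and COX2 the same replicate holds the same rank in both colours, and the ranges of the 2 treatments overlap for every row except ATP6.

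Across the 32 arrays the intron ORFs varied together more closely than the protein genes did. Over 36 pairs of intron ORFs the correlation had a median of 0.77 (0.34 to 0.94), over 21 pairs of protein genes 0.30 (−0.23 to 0.55), and over 63 mixed pairs 0.29 (−0.26 to 0.87). These are descriptions over 14 to 31 shared arrays of 14 conditions, the rows share their arrays and spread, and neighbouring rows may share sequence. Outside the mitochondrial genome, the features most like the median of the members among 4871 with at least 28 values were the B-type cyclin gene CLB4 (r = 0.82 over 30 arrays), the cell cycle transcription factor gene NDD1 (0.81 over 32), the phosphoinositide phosphatase gene SAC1 (0.80 over 32), RAP1 (0.77 over 30) and the calcineurin gene CNA1 (0.76 over 31).

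On the second design most mitochondrial rows stood above 0, and 2 memory arrays were the exceptions. Memory cells there had received NaCl and recovery before H2O2, as the pretreated cells of the first design had. With 1 array per condition there is no test, and past 2-fold means a log2 ratio over 1 or under −1. NUP42 itself read −5.36 on the basal nup42 array and −4.75 on the nup42 NaCl array, the 2 arrays with nup42 cells in one channel and BY4741 in the other. Elsewhere both channels hold cells of the same strain, so the ratios give no check of the strain label. The labels give other references than the array titles imply: the BY4741 memory arrays have unstressed BY4741 in the other channel, and the nup42 naive H2O2 arrays have nup42 cells recovered from NaCl. The nup42 NaCl array has BY4741 recovered from NaCl there. Values are therefore given side by side.

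In nup42 memory cells the median over members was 0.57 at 10 min, with 27 of 27 above 0, and −0.05 at 20 min, with 12 of 26 above 0. In BY4741 memory cells it was −0.34 at 10 min, with 3 of 26 above 0, and 0.23 at 20 min, with 17 of 24 above 0. Over all features, about as many lay above 0 as below it on each array. In nup42 naive cells the median was 0.55 and 0.82 at 10 and 20 min, and in BY4741 naive cells 0.41 and 0.46. The same BY4741 naive times on the first design had medians of −0.72 and −0.53 over tested members. The 2 designs thus lay on opposite sides of 0 there, and the cause was not tested. On the BY4741 memory array at 10 min the intron ORFs had a median of −0.93 and the protein genes −0.15, and on the nup42 memory array at 20 min −0.35 and 0.12. These are the arrays with the widest gap between the classes, −0.78 and −0.47. The intron median was the lower one on 7 of the 11 arrays, and on the other 4 the classes were within 0.10 of each other.

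Single rows show the same split on the BY4741 memory array at 10 min. All 9 intron ORFs were below 0 there, from −1.23 for BI3 and −1.09 for BI2 to −0.57 for AI2. The ribosomal RNAs were below 0 as well, with −0.56 for 15S and −0.86 for 21S, and RPM1 read −0.95. Among protein genes COB read −0.37, COX3 −0.22, ATP6 −0.19, COX2 −0.10, COX1 −0.05 and OLI1 0.24. OLI1 was thus the one protein gene above 0, and COX1 stood above the ORFs of its own introns, of which AI1 and AI3 both read −0.98. At 20 min in the same cells AI3 read −0.21 and COX1 0.22.

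**Figure D5:**
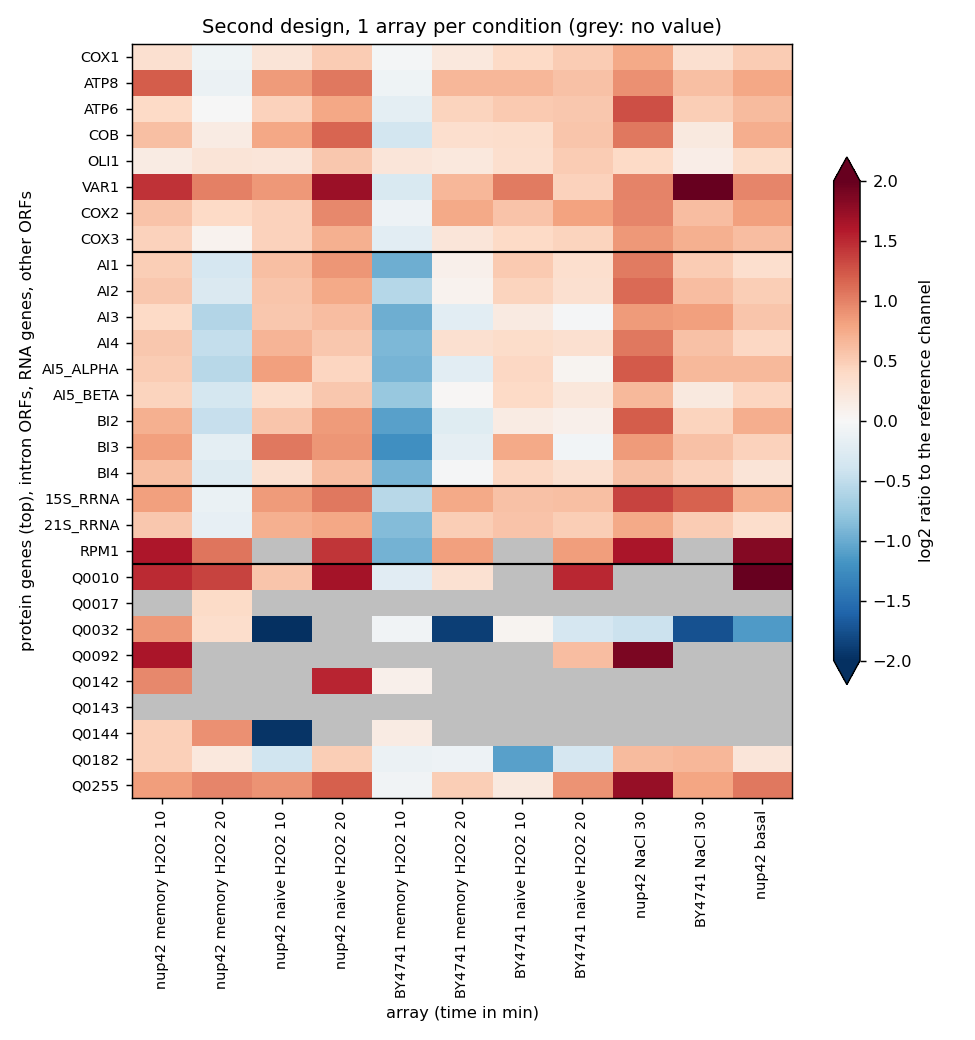
Log2 ratio (colour) of 29 mitochondrially encoded rows (vertical axis: protein genes, intron ORFs, RNA genes, other ORFs) on the 11 arrays of the second design (horizontal axis, times in min), with missing values in grey. Most named rows are above 0, and the intron ORFs are below 0 in BY4741 memory cells at 10 min and nup42 memory cells at 20 min.

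The highest member median, 0.99, was on the nup42 NaCl array at 30 min, where 11 of 24 members were past 2-fold and higher, against 17.7% of all features, and none lower, against 16.3%. The BY4741 NaCl array had 2 of 22 higher and 1 lower, against 18.3% and 18.2%. Its member median was 0.59 with 21 of 22 above 0, unlike the first design at 30 min of NaCl. On the nup42 array AI5_ALPHA read 1.22, BI2 1.21, ATP6 1.29 and 15S ribosomal RNA 1.34, against 0.65, 0.44, 0.50 and 1.18 on the BY4741 array. VAR1 ran the other way, with 1.0 on the nup42 array and 2.0 on the BY4741 array. The nup42 array has BY4741 recovered from NaCl in the other channel, so its ratios hold strain and salt together. Whether nup42 cells respond more to salt cannot be read from these values. The basal nup42 array, which sets unstressed nup42 cells against BY4741, had 23 of 24 members above 0 with a median of 0.59. Past 2-fold there were 3 higher and 1 lower, against 1.88% and 1.22% of all features. Among named rows on it RPM1 read 1.84, VAR1 0.98, COX2 0.82, COX1 0.51 and BI4 0.26. Without salt, AI5_ALPHA, BI2, ATP6 and 15S ribosomal RNA already read 0.65, 0.72, 0.63 and 0.70 on this basal array. In H2O2, nup42 memory cells had 5 of 27 and 3 of 26 members past 2-fold at 10 and 20 min (7.18% and 17.5% of all features), and BY4741 memory cells 2 of 26 and 1 of 24 (12.6% and 31.9%). Naive nup42 cells had 3 of 24 and 8 of 24 (5.69% and 15.6%), and naive BY4741 cells 2 of 22 and 1 of 25 (5.66% and 12.3%).

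Nuclear genes whose products join these complexes rose more often than they fell in H2O2, unlike the intron ORFs. Of 32 listed nuclear subunits of cytochrome c oxidase, the cytochrome bc1 complex and ATP synthase, 21 of 30 tested rose and none fell at 30 min in pretreated cells (median 0.69, with 29.7% of all features rising). In naive cells 27 of 32 rose and none fell (median 0.80, with 25.7% of all features rising). At that time the mitochondrial protein genes stood nearer to these subunits in naive cells than in pretreated cells. At 30 min 2 of 4 tested rose and none fell in naive cells (median 0.745). In pretreated cells 3 of 7 fell and none rose (median −0.12). Different rows enter these medians, and ATP8 and VAR1, which fell in pretreated cells, could not be tested in naive cells. At 10 min the order was the other way, with protein gene medians of −0.53 in naive and −0.24 in pretreated cells. The subunit medians were then 0.405 and 0.403. COX5B, a subunit isoform of cytochrome c oxidase made in low oxygen, rose by 2.31 ± 0.18 in pretreated cells and by 2.11 ± 0.18 in naive cells at 30 min (SE, n = 2 each). INH1, the inhibitor of ATP hydrolysis by ATP synthase, rose by 2.66 ± 0.46 in pretreated cells and by 1.94 ± 0.46 in naive cells at that time. QCR8, a subunit of the bc1 complex, rose by 2.10 ± 0.16 in naive cells at 30 min and was lower in pretreated than in naive cells at 40 min (−0.79 ± 0.23, limma adjusted p = 0.029).

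Of 42 listed nuclear genes for mitochondrial transcription, splicing, RNA stability and translation, more fell than rose early in H2O2. At 10 min 17 of 35 tested fell and 2 rose in pretreated cells (median −0.58), where 23.7% of all features fell and 16.6% rose. In naive cells 18 of 35 fell and 3 rose at that time (median −0.82), where 18.5% and 15.2% of all features did. At 40 min 7 of 37 fell and 11 rose in pretreated cells (median 0.11), against 33.4% and 29.7% of all features, and 11 of 36 fell and 6 rose in naive cells (median 0.02), against 33.4% and 27.9%. In naive cells at 10 min RPO41, the mitochondrial RNA polymerase, MIP1, the mitochondrial DNA polymerase, and DSS1, the exoribonuclease of the mitochondrial degradosome, fell, with means of −1.73 ± 0.23, −2.04 ± 0.22 and −1.78 ± 0.20 in that order (SE, n = 2, 2 and 3). RPM2, the protein subunit of mitochondrial RNase P, rose by 2.72 ± 0.48 at 30 min in pretreated cells and by 1.92 ± 0.48 in naive cells. At 20 min 6 of 37 listed genes were higher in pretreated than in naive cells and none were lower, beside 3.06% of all features higher, with RPO41 by 1.26 ± 0.27 (limma adjusted p = 0.017) and RMD9, a stability factor of mitochondrial messengers, by 1.23 ± 0.21 (limma adjusted p = 0.0049). At 30 min none were higher and 1 was lower, SLS1 with −1.08 ± 0.31 (limma adjusted p = 0.035). The medians over all features tested at 10 and 40 min lay between −0.10 and −0.04. Whether these lists differ from other genes was not tested.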

How the data were processed

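The deposited values are log2 ratios per feature, 1 table for each array design, with channel 2 (the sample) over channel 1 (its comparator), per the labels. What scanner, background correction, spot filter, normalization and log base the authors used is not given in the sources used here. No dye swap stands in the labels, so a constant dye effect enters ratios against 0 and cancels in differences between arrays. The tables were kept apart. Arrays of the first design had 4446 to 5575 values and those of the second 6500 to 6809; ratios carry no signal intensity, so the number of arrays limits the precision.

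Group means were fitted over the 32 arrays with limma 3.58.1 (lmFit, eBayes) in R 4.3.3. A feature was tested where each group had values on at least 2 arrays, with 2-sided p adjusted by the Benjamini-Hochberg method over all features tested and a threshold of 0.05. The SE comes from the variance pooled over all 32 arrays. The fit was tested on simulated data. Python 3.11.15 and pandas 2.3.3 made the summaries. The members and lists were chosen with earlier results of these data known. Every member could be named, along with at most 3 genes per direction of each nuclear list in a comparison, the 5 features most like the member median, and NUP42. Sequences were not used here. The alternatives changed array spread, centring, gaps, arrays in the fit, blocks, weights and single replicates.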

Additional observations from a re-analysis of the deposited data

Results flagged for a closer look

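AI1 and BI4, ORFs of a COX1 and a COB intron, had different ratios after 30 min of H2O2 in pretreated and in naive cells by the test of the difference itself. The pretreated minus naive difference was −1.52 ± 0.45 for AI1 on the log2 scale (SE, n = 2 each, limma adjusted p = 0.039) and −1.57 ± 0.29 for BI4 (limma adjusted p = 0.0085), so both were lower in pretreated cells. Both pretreated arrays lay below both naive arrays for each row. Neither call was made with equal array spread or in a fit to the compared arrays alone. The pretreated ratios are relative to recovered cells and the naive ratios to untreated cells. No group had 4 or more arrays, so no group was searched for a single array far from the others.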

How the results depend on the processing

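For single rows, 227 results were recomputed under 2301 alternatives: 2145 kept their direction and side of the threshold, 110 lost the call, 46 gained one and none of the called values turned sign, while 103 uncalled values changed sign and stayed uncalled. Counts of members called moved as follows. With equal array spread they were 1, 3, 3 and 2 at 10, 20, 30 and 40 min in pretreated cells, 0, 0 and 0 at 20, 30 and 40 min in naive cells, 0 for NaCl at 30 min and for pretreated minus naive at 30 min, 5 after recovery from NaCl and 6 after mock. The intron minus protein difference was then −0.80 and −0.90 at 30 and 40 min in pretreated cells, −1.0 and −0.72 in naive cells, −0.28 at 30 min of NaCl, −0.80 after NaCl and −0.64 after mock. With features valued on all arrays only OLI1 was left, called (1) at 30 min in naive cells and otherwise 0, and no class median could be had. Quality weights gave 1 in pretreated and 11 in naive cells at 10 min. A fit to the compared arrays alone gave 7 in pretreated and 3 in naive cells at 20 min, 5 for NaCl at 30 min and 0 for pretreated minus naive at 30 min. The YG8 block gave 2 for NaCl at 30 min, and leaving out the YG8 arrays, an alternative chosen after seeing the data, gave 8 in naive cells at 10 min. With rows valued on at least 24 arrays, also chosen after seeing the data, the class difference was −1.78 and −1.75 at 30 and 40 min in pretreated cells, −1.76 and −1.80 in naive cells and −0.55 at 30 min of NaCl, and with means in place of medians it was −1.21 at 30 min in pretreated cells. The cause was not tested.

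Leaving out 1 replicate gave 0 to 2, 4 to 10, 10 to 11 and 5 to 11 calls at 10, 20, 30 and 40 min in pretreated cells, among 3 to 12, 5 to 16, 17 and 13 to 16 members tested, so that the 4 at 20 min were 4 of 5. It gave 0 to 8, 0 to 6, 1 to 4 and 6 to 7 in naive cells among 7 to 15, 7 to 11, 14 to 18 and 17 to 18 tested, 0 to 1 for NaCl at 30 min among 12 to 15, and 0 to 2 for pretreated minus naive at 30 min among 14 to 18. A lone remaining array was assumed to vary like the other groups. At 1.5-fold the second design held 13 of 27 and 6 of 26 members past the fold in nup42 memory cells at 10 and 20 min (19% and 39.2% of all features), 10 of 26 and 6 of 24 in BY4741 memory cells (30.6% and 54.5%), 12 of 24 and 18 of 24 in nup42 naive cells (17.3% and 37.1%), 4 of 22 and 7 of 25 in BY4741 naive cells (14.8% and 30.6%), 21 of 24 on the nup42 NaCl array (55.9%), 12 of 22 on the BY4741 NaCl array (56.9%) and 13 of 24 on the basal nup42 array (11.7%).

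Replicate numbers were not taken to pair the compared groups, because not every same-numbered pair had a correlation of deviations over 0.1: replicates 1, 2 and 3 gave 0.17, −0.00 and 0.40 between pretreated and naive cells at 10 min, 0.27, 0.09 and 0.56 at 20 min, and 0.54, 0.15 and 0.06 between NaCl and mock. Within a course the 10 and 20 min arrays of the same replicate did deviate together, with 0.40, 0.43 and 0.63 in pretreated cells and 0.52, 0.41 and 0.50 in naive cells. With the replicate block the counts were 2, 11, 12 and 7 in pretreated cells, 4, 6, 8 and 9 in naive cells, 1 for NaCl at 30 min, 2 for pretreated minus naive at 30 min and 0 elsewhere. Gaps left 7 of 18 members untested at 40 min in pretreated cells, 8 at 30 min of NaCl and 13 at 45 min of NaCl.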
